A study of Saccharomyces cerevisiae with 16 samples.

Results

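The 6 genes described here are the budding yeast zinc transporter genes ZRT1, ZRT2, ZRT3, ZRC1 and COT1 and the regulator gene ZAP1. They were chosen by name from the 6648 named genes of the deposited table. The choice used no rule on measured values, but it was made with earlier results of these data known. All 6 were found, and all 6 had a value in each of the 14 deeper libraries. The study followed a Δphm4 strain of Saccharomyces cerevisiae through phosphate starvation by RNA sequencing. Per the labels the background was BY4741, a laboratory haploid of mating type a, and every library came from cells that carried both the deletion of PHM4 (also named VTC1, a subunit of the vacuolar polyphosphate synthesis complex) and pho84pr-YFP, a reporter of the PHO84 promoter. The 16 libraries are 1 from cells in high phosphate at 0 min and 15 from cells moved to medium without phosphate, sampled each 15 min up to 225 min. There was 1 library per time point and no strain without the deletion, and nothing in the labels says that the time points came from separate cultures, so spreads and p-values here measure the scatter between successive libraries, which may be technical.

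Zinc enters yeast cells mainly through Zrt1, the high-affinity transporter of the plasma membrane, and Zrt2, its low-affinity relative. Zrc1 and Cot1, proton-driven antiporters of the vacuolar membrane, load zinc into the vacuole, and Zrt3 releases it again. Zap1 is a zinc-sensing transcription factor that activates ZRT1, ZRT3, ZRC1 and its own gene when zinc is scarce, through zinc-responsive elements in their promoters, and it acts on ZRT2 as well.

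The promoter stretches that carry these elements are shown because they are the sequences through which 1 factor can reach several of the genes. The element searched was ACCTTNAAGGT, which reads the same on both strands, in the 500 bases before the annotated start of the 6000 protein-coding genes of RefSeq build R64 that have that many bases. With no mismatch it was present in 0.15% of these promoters, and with at most 1 mismatch in 1.97%. Of the 6 genes, 5 had at least 1 match with at most 1 mismatch, and COT1 had none. Capitals mark the matches, and each stretch is written 5′ to 3′ on the strand of its gene.
ZRT1: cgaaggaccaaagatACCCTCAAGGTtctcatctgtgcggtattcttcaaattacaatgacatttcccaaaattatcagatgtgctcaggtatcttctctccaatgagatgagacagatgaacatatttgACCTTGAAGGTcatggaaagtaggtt
ZRT2: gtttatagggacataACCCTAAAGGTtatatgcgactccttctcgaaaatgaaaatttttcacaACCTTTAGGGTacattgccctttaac
ZRT3: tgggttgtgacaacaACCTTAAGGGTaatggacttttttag
ZRC1: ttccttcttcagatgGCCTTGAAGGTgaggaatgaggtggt
ZAP1: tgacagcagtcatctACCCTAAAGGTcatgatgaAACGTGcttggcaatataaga
The stretches lie at chrVII:20644-20799 (plus strand) for ZRT1, chrXII:404299-404388 (minus strand) for ZRT2, chrXI:118623-118663 (plus strand) for ZRT3, chrXIII:756315-756355 (minus strand) for ZRC1 and chrX:333178-333232 (minus strand) for ZAP1. Substitutions are given as the base of the element, its position counted from 1 at the 5′ end, and the base of the site. ZRT1 had a match with no mismatch, 204 to 194 bases before its start, and a second with T4C. ZRT2 had a match with T4C and a match with A8G. The single matches of ZRT3, ZRC1 and ZAP1 had A8G, A1G and T4C. In the ZAP1 stretch the capitals also mark AACGTG, the reverse complement of CACGTT, a variant of the site of the phosphate regulator Pho4. CACGTT on either strand was present in 16.0% of promoters and, among the 6 genes, in those of ZRT3 and ZAP1. The main Pho4 site CACGTG, present in 6.23% of promoters, was in none of the 6. A match of letters is a description and not a site of binding.

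Values are log2 of reads per 1000000 (CPM). Depth, recovered on the assumption that the lowest listed value of a library is 10 reads, was 603426 to 3437873 reads in the 14 deeper libraries and 40984 and 45009 reads in the libraries labelled 195 and 210 min. VTC1, the gene labelled as deleted, was not at 0 in any library. It stood at log2 values of 6.67 to 7.51 in the deeper libraries and at 10.80 and 10.90 in the 2 shallow ones, which thus stand apart. In each deeper library it was above the median gene, with 6.67 against 5.97 at 0 min, so VTC1 was listed in all 16 libraries, against the label of the deletion. In the deeper libraries VTC1 stood 0.58 and 0.55 log2 above 0 min in 15 to 60 and 135 to 180 min. VTC4, a gene of the same complex, stood 2.70 and 2.77 above it. Whether the VTC1 reads come from sequence left at the locus was not tested. Results below rest on the 13 deeper starvation libraries and 0 min, and values with the 2 shallow libraries are given for ZRC1, the only one of the 6 genes listed in either. Markers of mating type a, MFA1, MFA2, STE2 and BAR1, all had values and summed to 1977 to 6781 CPM, whereas 3 of 4 markers of mating type alpha had any value and summed to 24.8 to 72.4 CPM, with MF(ALPHA)2 listed nowhere. The median gene stood 0.32 log2 higher in starvation than at 0 min, so ratios to 0 min are given also after centring on it. These are shares of the RNA of a whole culture, in which fewer cells that express a gene and less RNA per cell cannot be told apart.

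ZRT1, the high-affinity uptake gene (YGL255W, chrVII:20978-22108), had the lowest mean level per kilobase of the 6 in starvation. It stood at 23.3 CPM at 0 min. In the 13 starvation libraries the lowest value was 16.0 CPM at 165 min, the median 27.8 CPM and the highest 40.6 CPM at 15 min, or 4.70 ± 0.50 on the log2 scale (SD, n = 13). It was above 0 min in 8 of 13 libraries and below in 5, so the groups overlap. After centring on the median gene it was above in 6 of 13. Between 14 and 85 reads lay behind each value. At 15 min the exact 95% Poisson interval, which covers counting error only, ran from 30.6 to 52.9 CPM, and at 45 min, with 16.5 CPM, from 11.2 to 23.5 CPM.

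ZRT2, the low-affinity uptake gene (YLR130C, chrXII:402794-404062), stood at 117 CPM at 0 min. Its lowest starvation value was 71.7 CPM at 150 min, its median 126 CPM and its highest 194 CPM at 75 min, with 193 CPM at 15 min (SD 0.37 on the log2 scale, n = 13). The 15 and 75 min libraries were high and the 150 min library low, and 10 of 13 libraries were above 0 min. After centring on the median gene only 3 of 13 were above it.

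ZRT3, which exports zinc from the vacuole (YKL175W, chrXI:118793-120304), varied least. It stood at 86.4 CPM at 0 min. The lowest starvation value was 60.5 CPM at 105 min, the median 87.5 CPM and the highest 103 CPM at 30 min (6.43 ± 0.21 log2, SD, n = 13). The values lay on both sides of 0 min, 8 above and 5 below. After centring on the median gene only 1 of 13 was above it.

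ZRC1, the first of the vacuolar zinc importers (YMR243C, chrXIII:754838-756166), was lower in all 13 deeper starvation libraries than at 0 min. It stood at 271 CPM at 0 min, with a 95% interval of 253 to 288 CPM. It was at 201, 171, 140 and 155 CPM at 15, 30, 45 and 60 min, then at 177, 221, 225 and 157 CPM at 75, 90, 105 and 120 min. It was at 153, 95.4, 124 and 140 CPM at 135, 150, 165 and 180 min and at 123 CPM at 225 min. The values were thus lower at 45 min than at 15 min, highest at 90 and 105 min, where they stayed under the 0 min value, and lowest at 150 min. In the shallow library labelled 210 min ZRC1 was listed at 355 CPM, from 16 reads. Its interval of 203 to 577 CPM includes the 0 min value and lies above the values at 180 and 225 min. None of the other 5 genes was listed in either shallow library, where the lowest listed values were 244 and 222 CPM.

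COT1, the second vacuolar importer (YOR316C, chrXV:906236-907555), stood at 62.8 CPM at 0 min. Its lowest starvation value was 48.9 CPM at 60 min, its median 63.1 CPM and its highest 91.7 CPM at 225 min (6.05 ± 0.29 log2, SD, n = 13). It was above 0 min in 7 libraries and below in 6, so the groups overlap. After centring on the median gene it was above in 5 of 13.

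ZAP1, the regulator (YJL056C, chrX:330431-333073), was higher in all 13 deeper starvation libraries than at 0 min. It stood at 27.1 CPM at 0 min, with a 95% interval of 21.8 to 33.1 CPM. It was at 56.1, 89.5, 61.4 and 47.9 CPM at 15, 30, 45 and 60 min, at 109, 80.7, 67.9 and 60.4 CPM at 75, 90, 105 and 120 min, at 68.7, 61.7, 54.9 and 66.5 CPM at 135, 150, 165 and 180 min, and at 62.0 CPM at 225 min. The 30 and 75 min libraries were highest and the 60 min library lowest, whose interval of 35.6 to 63.2 CPM lay above that of 0 min. Both intervals cover counting error only. Over the 13 starvation libraries ZAP1 reads varied more than counting alone gives, with a chi-squared of 4.88 per degree of freedom. The gap between the 2 intervals is thus no test against 0 min. All 13 stayed above 0 min after centring on the median gene.

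**Figure D1:**
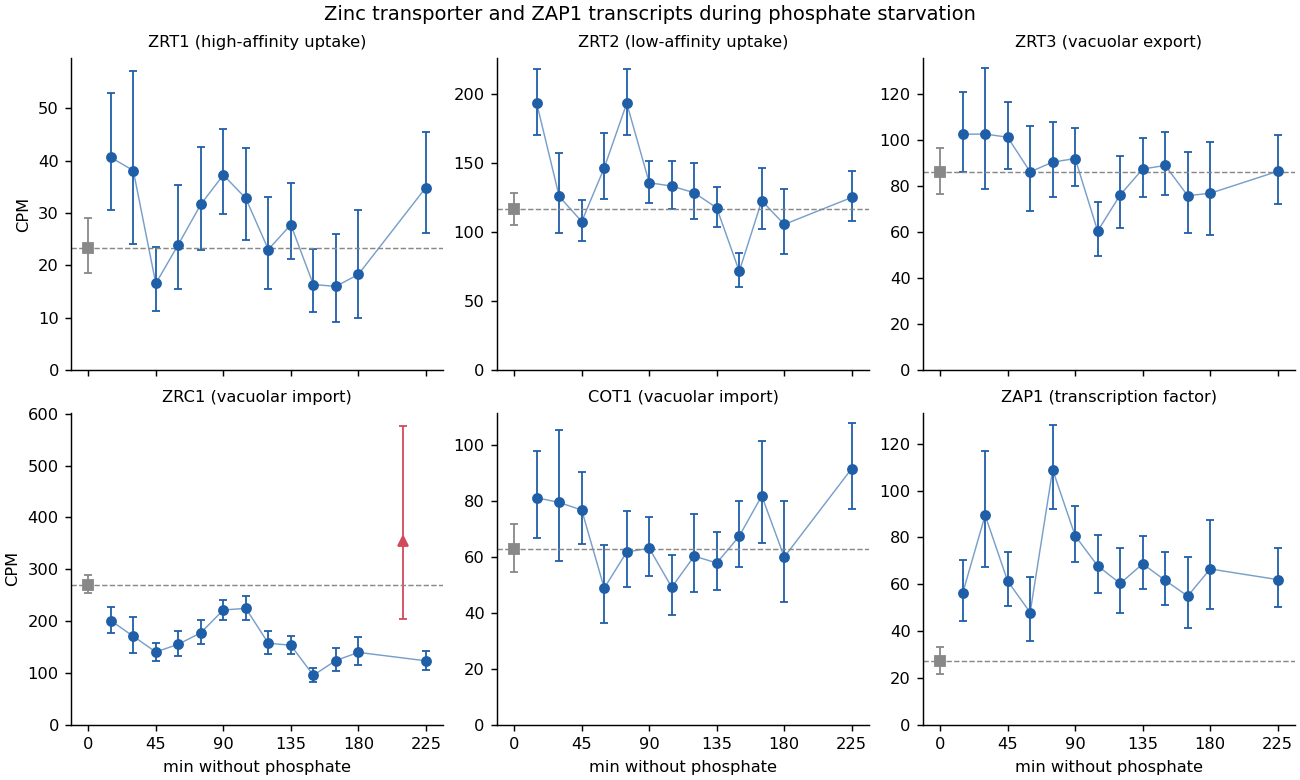
Reads per 1000000 (CPM, linear axis from 0, its own range in each panel) of the 6 genes against minutes without phosphate. The grey square and dashed line are the 0 min library, blue circles the 13 deeper starvation libraries, the red triangle the shallow library labelled 210 min, and bars exact 95% Poisson intervals for counting error; ZRC1 lies below the dashed line and ZAP1 above it in all 13.

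Against the single 0 min library, which has no replicate and allows no test, ZAP1 was higher and ZRC1 lower. No mean log2 ratio of the other 4 genes reached 1 in either direction. A gene was counted as higher or lower at a mean log2 ratio of at least 1 with the same sign in all 4 libraries of a window. In the first window, 15 to 60 min, ZAP1 was 1.20 ± 0.38 higher on the log2 scale (2.29-fold, SD, n = 4), and ZRC1 stood at -0.71 ± 0.22. In 135 to 180 min ZAP1 was 1.21 ± 0.14 higher (2.32-fold) and ZRC1 stood at -1.10 ± 0.30 (2.14-fold lower). Between these windows, in 75 to 120 min, ZAP1 stood at 1.52 ± 0.37 and ZRC1 at -0.49 ± 0.25. The means of ZRT1, ZRT2, ZRT3 and COT1 lay between -0.29 and 0.40 in the 3 windows. After centring on the median gene these means lay between -0.62 and 0.07, so their side of 0 min depends on the centring.

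By that rule 1 of the 6 genes was higher in 15 to 60 min, against 16% of 4615 genes with values, and 0 were lower, against 8.49%. In 135 to 180 min 1 was higher, against 22.4% of 4897 genes, and 1 was lower, against 10.9%. In 75 to 120 min, a window added as a description, 1 was higher, against 10.8% of 5095 genes, and 0 were lower, against 3.91%. With 6 genes, 1 or 0 called is near the share of all genes in each window. After centring on the median gene ZAP1 stood at 0.92, 1.19 and 0.88 in the 3 windows and so passed the rule in 75 to 120 min and in neither of the others, while ZRC1 stood at -0.99, -0.82 and -1.44. Without the 150 min library the mean of ZRC1 in 135 to 180 min was -0.97, just short of the rule.

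**Figure D2:**
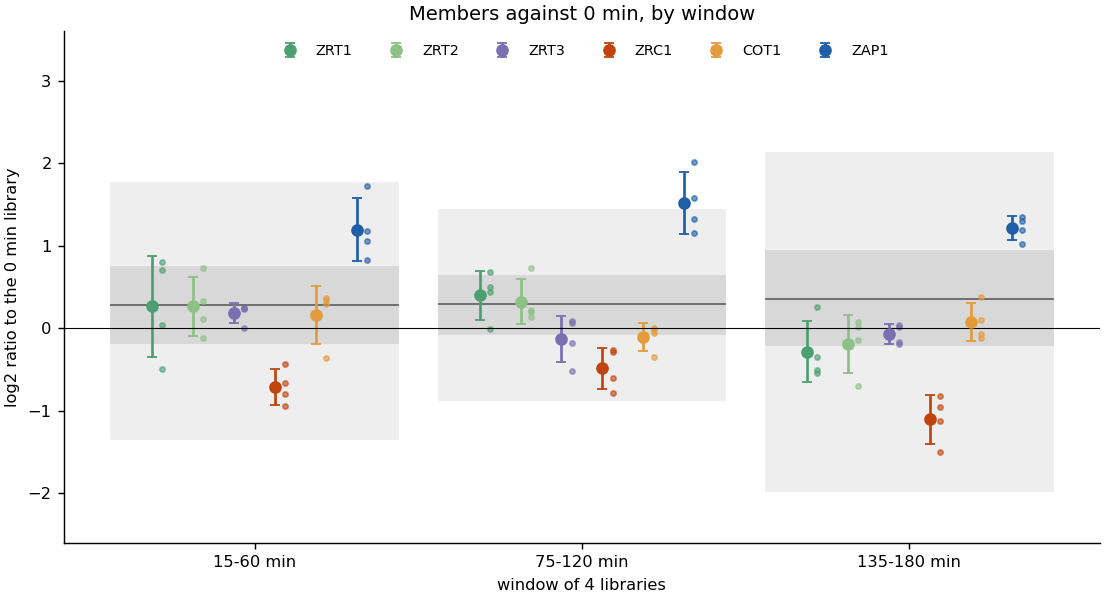
Mean log2 ratio to the 0 min library (large points, bars are the SD over 4 libraries, small points the single libraries) for the 6 genes in 3 windows. Light and dark grey bands hold the middle 90% and 50% of all genes with values and the grey line is their median; ZAP1 lies above the dark band and ZRC1 below it in each window.

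Within starvation none of the 6 genes was called by the slope test, the spline of 3 degrees of freedom or the window contrasts. The slope on time was fitted with limma over the 13 deeper libraries and is given as the fitted log2 change from 15 to 225 min. The changes were -0.58 ± 0.45 (SE) for ZRT1, -0.60 ± 0.31 for ZRT2, -0.36 ± 0.22 for ZRT3, -0.67 ± 0.29 for ZRC1, 0.10 ± 0.29 for COT1 and -0.19 ± 0.31 for ZAP1. The slope test called 0 of 6 genes against 6.4% of the 5282 genes tested. ZRC1 alone had an unadjusted p under 0.05, with an adjusted p from limma of 0.168. With the libraries labelled 195 and 210 min its fitted change was -0.14 ± 0.39 (limma adjusted p = 0.875). The change of ZRT1 was -1.20 ± 0.48 without 225 min (limma adjusted p = 0.174) and -0.37 ± 0.50 without 15 min, that of ZAP1 lay between -0.37 without 15 min and -0.03 without 30 min, and that of COT1, without 225 min, turned to -0.24. A cubic natural spline of 3 degrees of freedom, which can follow a rise and fall, called 0 of 6 with limma, against 2.73%, with 0 under an unadjusted p of 0.05 and a lowest adjusted p of 0.264. With 4 degrees of freedom it called ZRT1 (limma adjusted p = 0.0296) and ZRC1 (0.0263), but also 34.4% of all genes, so 2 of 6 is near the background.

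Contrasts between the 3 windows called 0 of 6 genes with limma. The background was 0.191% of 5226 genes for the second window against the first, 0.306% for the third against the second and 0.0574% for the third against the first. From the second to the third window ZRT1 had a difference of -0.69 ± 0.30 (SE), ZRC1 of -0.61 ± 0.19 and ZRT2 of -0.51 ± 0.22. These 3 genes had unadjusted p-values under 0.05, and the lowest adjusted p, that of ZRC1, was 0.0858 in limma. With windows of 3 libraries (45 to 75, 90 to 120 and 150 to 180 min) the same contrast was -0.75 for ZRC1 (limma adjusted p = 0.0103) and -0.85 for ZRT1 (0.0435), both short of the minimum difference of 1. Those windows again called 0 of 6, against 8.4%, 16.2% and 1.37% of 5024 genes for the same 3 contrasts.

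Per kilobase of coding length, the mean log2 level in starvation ran from ZRC1 (6.87) through ZRT2 (6.65), ZRT3 (5.83), COT1 (5.65) and ZAP1 (4.66) to ZRT1 (4.52). ZRC1 over ZRT2 held in 9 of 13 libraries, with a difference of 0.22 ± 0.27 (SD), and ZRT3 over COT1 in 11 of 13, with 0.17 ± 0.25. ZAP1 over ZRT1 held in 8 of 13, with 0.13 ± 0.46. In each of these 3 neighbouring pairs the mean difference was smaller than its SD over libraries, and by these counts the order did not hold in every library. Whether the mean levels differ was not tested. ZRT2 over ZRT3 held in 12 of 13 and COT1 over ZAP1 in 13 of 13. At 0 min the last pair of the order was turned, with ZRT1 at 4.36 above ZAP1 at 3.36, and ZRC1 was 1.15 above ZRT2.

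The differences between 3 pairs of genes of 1 family or organelle were followed in time, with a two-sided permutation test of the slope adjusted over the 3 pairs. The difference of ZRT1 and ZRT2 had a fitted change of 0.02 ± 0.38 log2 (SE) from 15 to 225 min (permutation test, adjusted p = 0.968). That of ZRC1 and COT1 was 2.11 log2 at 0 min and 0.43 to 2.19 in starvation, below 0 min in 12 of 13 libraries, and its change within starvation was -0.77 ± 0.48 (permutation test, adjusted p = 0.403). That of ZRC1 and ZRT3 was 1.65 at 0 min, below it in 12 of 13 libraries, with a fitted change of -0.31 ± 0.42 (permutation test, adjusted p = 0.728). A p that misses the threshold does not show that these pairs move alike.

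The genes whose pattern was most like that of each member were taken as the 3 with the highest Pearson correlation over the 14 deeper libraries, among 4495 genes. The points share libraries, depth and one 0 min sample, and the values are a description. For ZRC1 these were MAK16, a factor of large ribosomal subunit assembly (r = 0.96), RBG1, a GTP-binding protein that associates with ribosomes (0.95), and EMG1, a methyltransferase of small subunit RNA (0.95). Without 0 min they were 0.95, 0.93 and 0.94. MAK16 stood at -1.70 log2 against 0 min in 15 to 60 min and at -2.38 in 135 to 180 min, and at -0.25 at 90 min, a larger swing than that of ZRC1.

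For ZAP1 the likest genes were YEL1 (r = 0.84), VTC4, the polyphosphate polymerase of the complex that VTC1 belongs to (0.83), and ERG27, an enzyme of sterol synthesis (0.83). Without 0 min the correlations were 0.79, 0.53 and 0.57, so those of VTC4 and ERG27 rest in part on the 0 min library. For the other members the likest genes were KRE6, ILV1 and ARG7 for ZRT1, PIF1, FUS3 and CCA1 for ZRT2, ALF1, HRK1 and NPL3 for ZRT3, and APL4, PYC2 and MEP1 for COT1, with r from 0.77 to 0.86. Between members, ZRT1 and ZRT2 had r = 0.66, ZRT1 and ZRC1 0.56 and ZRT2 and ZRC1 0.55 over the 14 libraries. ZRT3 and COT1 had 0.52 and ZRC1 and COT1 -0.34. Without 0 min these were, in the same order, 0.66, 0.72, 0.71, 0.53 and -0.35. ZRC1 and ZAP1 had -0.20 with 0 min and 0.36 without it, so that sign rests on the 0 min library.

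**Figure D3:**
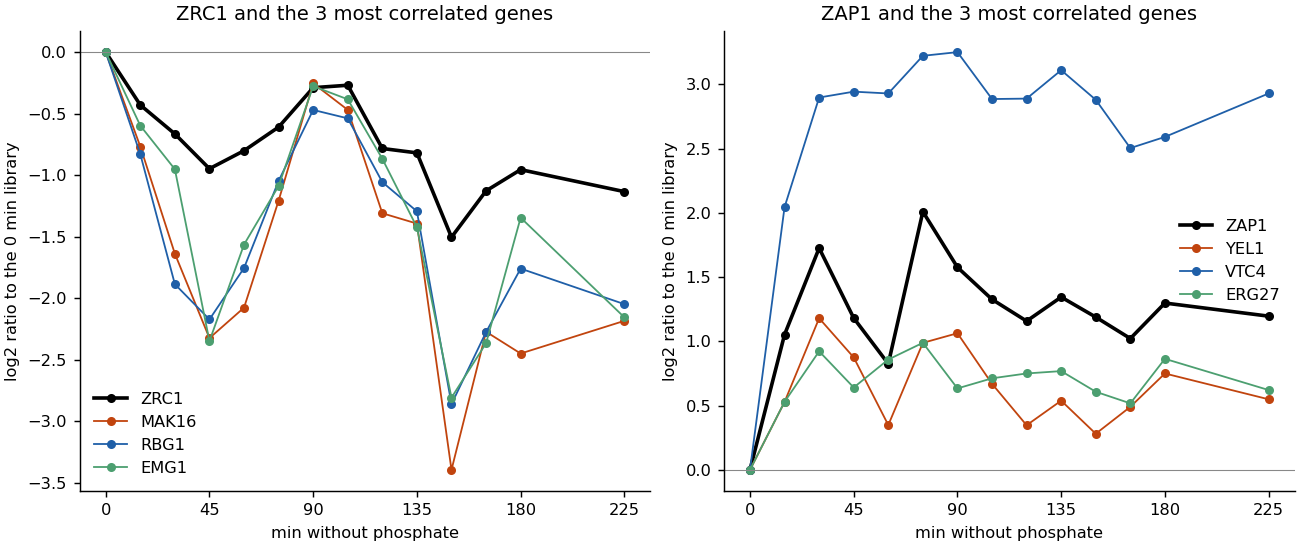
Log2 ratio to the 0 min library against minutes without phosphate in the 14 deeper libraries, for ZRC1 (left) and ZAP1 (right) in black and the 3 genes with the highest correlation to each in colour. The genes beside ZRC1 are low at 45 min, near the 0 min value at 90 min and lowest at 150 min, while VTC4 lies above ZAP1 at every starvation time.

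Of 22 other genes named as Zap1 targets, 19 could be fitted, 1 rose over starvation and 0 fell, against 6.4% of all genes called in either direction. That gene was CTT1, the cytosolic catalase, which is also a general stress gene, with a change of 2.98 ± 0.77 (limma adjusted p = 0.0309). The median change of the list was 0.21, beside 0.09 over all 5282 genes. In 135 to 180 min 3 of the 19 with a ratio were higher than 0 min, against 22.4% of all genes, CTT1 at 3.50, ICY2 at 1.17 and DPP1, a zinc-regulated lipid phosphatase, at 1.10. Another 2 were lower, against 10.9%: IZH1, a membrane protein of zinc homeostasis, stood at -2.01 and FET4, a low-affinity transporter of iron and zinc, at -1.18. The median of the list was 0.16, beside 0.36 over all genes. ADH4, the zinc-regulated alcohol dehydrogenase, stood at 0.16 and ZRG17, a transporter of the endoplasmic reticulum, at -0.13. Others lay further from 0 but short of the rule, YJL132W at 0.93 ± 0.26 (SD), ZPS1 at 0.82 ± 0.79 and KTI12 at -0.53 ± 0.39. VEL1 and YOR387C, 2 other genes of the list, were listed in no library.

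For other lists tied to zinc, calls by slope stand beside 6.4% of all 5282 genes tested. Of 12 genes for zinc-binding enzymes, 1 rose, PHO8, the vacuolar alkaline phosphatase (1.20 ± 0.33, limma adjusted p = 0.0367), and 2 fell, MET6, methionine synthase (-2.01 ± 0.28, 0.0018), and URA4, dihydroorotase (-1.24 ± 0.26, 0.0175). These calls are a larger share of this list than of all genes, in a list of only 12. Against 0 min, 5 of the 12 were higher in 15 to 60 min, against 16% of all genes, and 0 were lower, against 8.49%. In 135 to 180 min 6 were higher, against 22.4%, and 1 was lower, against 10.9%. Of 7 other genes of zinc handling, limma called 0 by slope and 1, PHO84, by the spline of 3 degrees of freedom (adjusted p = 0.0411). That spline called 2.73% of all genes. Of the 12 zinc-binding enzymes it called 2, MET6 (limma adjusted p = 0.0119) and URA4 (0.0411). PHO84, the high-affinity phosphate transporter, which can also carry zinc, had 4.19 log2 above 0 min in 15 to 60 min and 4.73 in 135 to 180 min. Its slope of 0.91 ± 0.25 had a limma adjusted p of 0.0361 but stayed under the minimum change of 1. Of the iron regulon 0 of 17 genes tested and of the vacuolar proton pump, whose gradient drives Zrc1 and Cot1, 0 of 13 were called by slope. Against 0 min, 3 of 15 iron genes were lower in 15 to 60 min, against 8.49% of all genes, and 1 was higher, against 16%. In 135 to 180 min 2 of 14 were lower, against 10.9%, and 1 was higher, against 22.4%. Of the pump 0 of 13 were higher or lower in these windows.

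**Figure D4:**
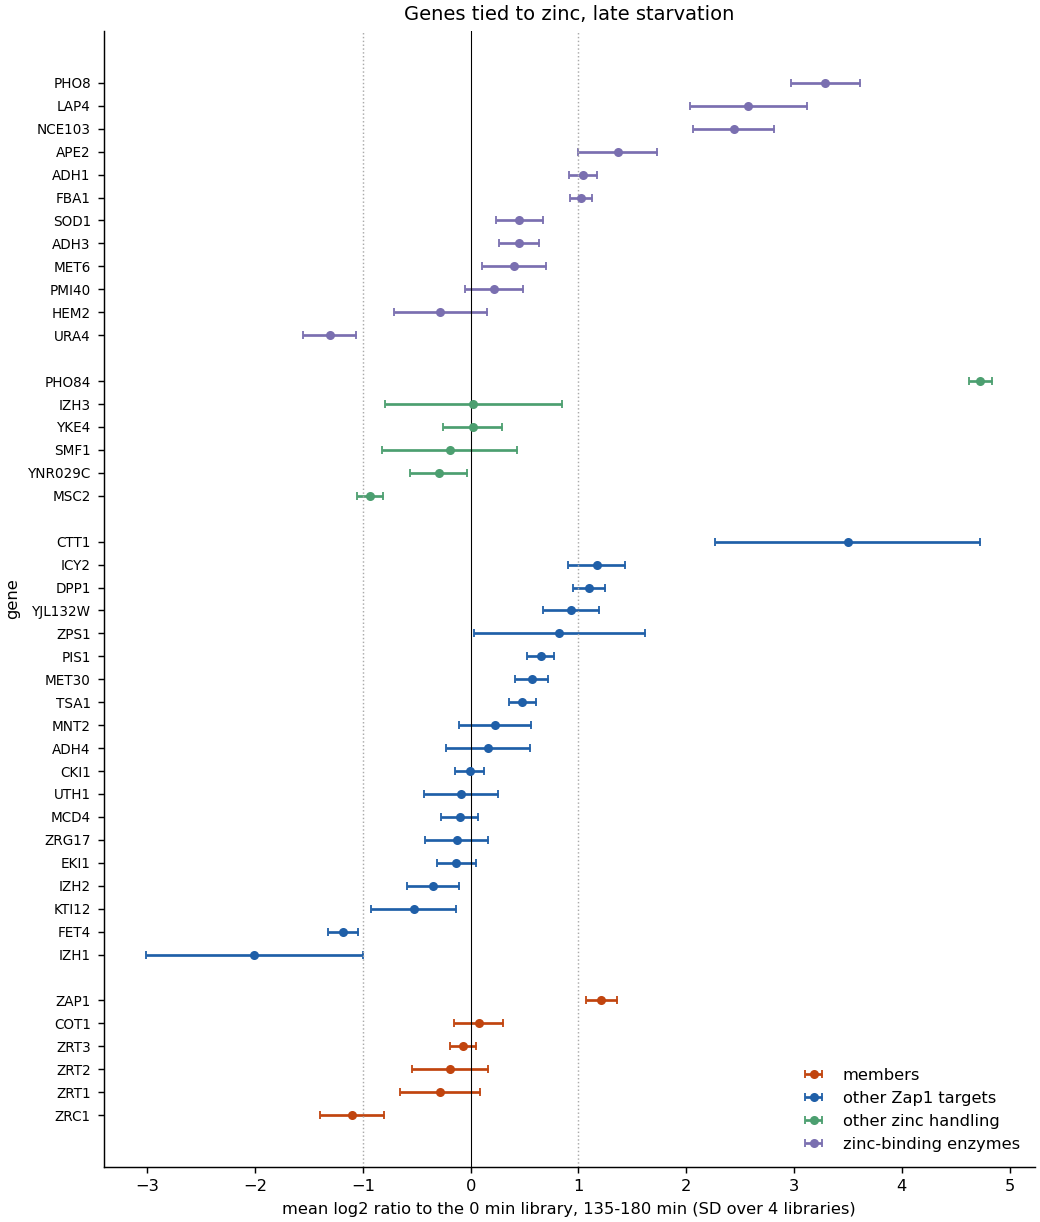
Mean log2 ratio to the 0 min library in 135 to 180 min (points, bars are the SD over 4 libraries) for the 6 genes, other Zap1 targets, other zinc handling genes and zinc-binding enzymes. Dotted lines mark a ratio of 1 in either direction; ZAP1, at 1.21, lies on the high side and ZRC1, at -1.10, on the low side, and the Zap1 targets lie on both.

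The element with at most 1 mismatch was in the promoters of 7 of the 22 other Zap1 targets and 0 of 20 iron regulon genes. Motifs of the ribosome assembly genes, searched after the likeness of ZRC1 had been seen, were not in its promoter. GATGAG (the PAC core, 28.3% of promoters, either strand) was in that of ZRT1, and AAAATTTT (the RRPE core, 12.4%) in that of ZRT2. The stress response element CCCCT (34.1%) and the iron regulator's TGCACCC (2.33%) were in none of the 6. No match says only that these letters are not in the window. The longest exact stretch shared between the coding regions of any pair of members was 14 bases, between ZRC1 and COT1, and no annotated gene overlaps any of the 6.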

How the data were processed

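Gene expression was measured by RNA sequencing in 16 libraries, 1 per time point. Per the submitters' processing notes reads were aligned with Bowtie to build R64; its version, the counting program and the use of strand are not given in the sources used here. The deposited table holds log2 values made by the authors; raised back, each library sums to 1000000, so they are log2 CPM. The series' design text mentions scaling to 0 min; the values are not so scaled, and ratios to 0 min were taken here as differences of log2 values. A gene below the lowest listed value of a library is missing there, and nothing was added to values before use. Of 6701 entries, 51 without a name and 1 name on 2 entries were left out.

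Reads were recovered with a step of the lowest value divided by 10, an assumption made after the values were seen. With it 96.1% to 97.2% of values under 200 reads in the 14 deeper libraries were whole within 0.01 reads. With 20 in place of 10 these shares were 97.0% to 98.1%, so the step is not settled, and intervals rest on it.

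Slopes, splines and window contrasts were fitted with limma 3.58.1 in R 4.3.3 (mean-variance trend, at least 8 values) over all genes, with Benjamini-Hochberg adjustment, and called at an adjusted p under 0.05 and, for slopes and windows, a change of at least 1. The fit was tested on simulated data. Pairs were tested with 100000 permutations. Genes named are the 6 members, up to 4 genes of a list called by slope (or all of them where 5 or fewer were called) and the 3 likest genes of each member; other list genes named with a ratio and the promoter motifs beyond the zinc-responsive element were chosen after their values were seen. The members, the lists and the use of 13 starvation libraries were chosen with earlier results of these data known. Alternatives were other libraries, scalings, filters, variance models, time scales, thresholds, splines and windows, and each library left out in turn.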

Additional observations from a re-analysis of the deposited data

Results flagged for a closer look

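ZRC1 was listed in the library labelled 210 min, which the comparisons do not use, at a log2 value of 8.47, above its 0 min value of 8.08. It rests on 16 reads, with an interval of 203 to 577 CPM that includes the 271 CPM of 0 min. The interval lies above the 140 and 123 CPM of the deeper libraries at 180 and 225 min. The lowest listed value of the library labelled 210 min was 222 CPM. VTC1 stood at a log2 value of 10.90 in the same library; its part in this value was not tested.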

How the results depend on the processing

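Apart from ratios, 539 of 558 alternative values of single genes kept their direction and side of the threshold, 2 gained a call (4-df spline) and 17 changed sign, all of them uncalled. Slope calls over all genes were 100 with the 195 and 210 min libraries, 714 with 0 min, 114 on log2 time and 57 to 417 with 1 library left out. Spline calls were 24 with the 195 and 210 min libraries, 474 with 0 min, 1817 with 4 df (2 of the 6 genes) and 31 to 941 with 1 library left out. Window calls, in the report's order of contrasts, were 422, 812 and 69 with 3-library windows; with 1 library left out, 0 to 52, 0 to 658 and 1 to 184; 135-180 against 75-120 min with complete genes, 10. The ZRC1 slope with the 195 and 210 min libraries was -0.14. With 1 library left out slopes of ZRT1 ran from -1.20 to -0.37, ZRT2 from -0.85 to -0.41, ZRT3 from -0.54 to -0.31, ZRC1 from -0.79 to -0.55 and ZAP1 from -0.37 to -0.03. Sign changes of slopes were COT1 -0.0070 (centred), -0.16 (log2 time) and -0.24 to 0.28 (1 library left out), and ZAP1 0.32 (with 0 min). With 3-library windows they were ZRT2 -0.13, COT1 0.17 and ZAP1 -0.17; centred, ZAP1 -0.041. With 1 library left out, ZRT1 ran from -0.12 to 0.31 and ZRT2 from -0.079 to 0.21 (75-120 against 15-60 min), ZRT3 from -0.066 to 0.14 (135-180 against 75-120 min) and ZAP1 from -0.11 to 0.19 (135-180 against 15-60 min). Centring left 0 of the 6 genes higher than 0 min by the rule for ratios in 15 to 60 and 135 to 180 min, and 462 and 698 of all genes. ZAP1 then stood at 0.92 and 0.88, under the rule, and passed it in 75 to 120 min with 1.19. The count lower in 135 to 180 min was 0 to 1 with 1 library left out. The ZRT1 and ZRT2 difference changed by -0.35 to 0.26 with 1 library left out. An alternative chosen after seeing the data, without 15 and 30 min, gave 0.42, -1.24 and -0.49 for the 3 pairs, with permutation adjusted p of 0.416, 0.216 and 0.416. With 0 min added the slope of ZRC1 was -0.84 (limma adjusted p = 0.0418), under the minimum change. The causes were not tested. Libraries could not be paired between conditions because there is 1 library per time point. Only the differences between genes were paired, within each library. Depth limits ZRT1 most, at 14 to 85 reads a library.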
